A study of Mus musculus with 7 samples.

Results

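Transcripts of the ubiquitin-proteasome system were followed at 3 h and 10 h after a treatment in mouse NIH3T3 fibroblasts, a long-established embryonic line, with overexpression of Acid1. The members were all probes whose single annotated symbol names a proteasome gene (Psma to Psmg with a number), an E2 conjugating enzyme (Ube2 with a letter) or a ubiquitin-specific protease (Usp with a number). They came to 135 probes of 93 genes, among 20355 probes on the array, of which 14030 had 1 symbol. The proteasome class held 51 probes of 41 genes, the conjugating enzymes 33 probes of 21 genes and the ubiquitin proteases 51 probes of 31 genes. The pattern also took in Psmc3ip, a recombination factor, and Psme3ip1, a protein that binds an activator, neither of which is a proteasome subunit.

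The data came from 7 two-colour arrays, on which a treated sample was hybridised together with a non-treated one. At 3 h there were 4 arrays, replicates 1 and 2 with the treated RNA in Cy5 and replicates 3 and 4 with it in Cy3, and at 10 h there were 3 arrays, replicates 1 and 2 in Cy5 and replicate 3 in Cy3. The series names Acid1 overexpression, and no probe carried that symbol, so the targeted gene was not checked. The labels do not give the treatment, the vector, the meaning of Acid1, nor whether the replicates were grown separately. The p-values therefore reflect array-to-array spread alone, which may be technical. The shared protocol speaks of organs and of a reference pooled from control animals, while the source names say fibroblasts. A ratio tested against 0 leaves out the spread of the non-treated sample itself, and fewer cells of a type cannot be told apart from less RNA per cell. Values are log2 ratios, read as treated over non-treated, so that 1 unit is a doubling. The labels do not state that direction. On each array 1 extreme value recurred, and it was later treated as missing. On Cy5 arrays it was 17.06 and 16.80 at 3 h and 16.05 and 16.21 at 10 h. On Cy3 arrays it was -16.71 and -16.09 at 3 h and -15.98 at 10 h. Its sign thus followed the dye orientation. Ratios already turned to treated over non-treated would show this if the same channel was low throughout, which was not tested. The other reading, Cy5 over Cy3, turns the sign of every value on a Cy3 array. Fitted values under it are printed for some of the probes whose direction or size it changes. Other probes change too, so a probe printed without such a value need not keep its direction.

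In this pathway ubiquitin is activated by an E1 enzyme, passed to an E2 conjugating enzyme and attached to a substrate with the help of an E3 ligase, and chains of ubiquitin mark many proteins for the proteasome. The proteasome is a barrel of alpha and beta rings, with the proteolytic sites in the beta rings, capped by a regulatory particle whose ATPases unfold the substrate. Ubiquitin-specific proteases take ubiquitin off again. Proteasome genes are known to be induced together by the transcription factor Nfe2l1 when proteolysis is short, and Nfe2l2 also acts on some of them through the antioxidant response element.

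No member passed the test at either time. Probes with at least 3 values at 3 h and 2 at 10 h were tested, which left 77 of the 135 member probes, for 57 of the 93 genes. Of all 11559 probes tested with limma (two-sided, Benjamini-Hochberg adjustment, threshold 0.05), 0 passed at 3 h, 0 at 10 h and 0 for the difference of the times, which is 0% in each. The smallest adjusted p among the members was 0.239 at 3 h, 0.9996 at 10 h and 0.577 for the difference. At an unadjusted p under 0.05 there were 8 member probes at 3 h (7 below 0 and 1 above), 1 at 10 h (below 0) and 2 for the difference (both higher at 10 h). Over all probes tested, 13.6% reached that level at 3 h, 3.88% at 10 h (1.56% above 0 and 2.32% below) and 8.11% for the difference (5.37% higher at 10 h and 2.74% lower).

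The proteasome class differed little from the array as a whole at 3 h and lay slightly above 0 at 10 h. Its 34 tested probes, of 28 genes, had a median fitted log2 ratio of -0.13 at 3 h and 0.08 at 10 h, against -0.15 and -0.02 over all probes tested. At 3 h 13 of the 34 were above 0 (all probes 38.6% above and 61.4% below), and at 10 h 21 of the 34 (all probes 46.5% above and 53.5% below). The 19 conjugating enzyme probes, of 13 genes, had medians of -0.03 and -0.06, with 7 and 8 above 0. The 24 ubiquitin protease probes, of 16 genes, had medians of -0.20 and -0.07, with 7 and 11 above 0. Above 0 on every 3 h array with a value were 1 proteasome, 0 conjugating enzyme and 2 protease probes, against 7.09% of all probes, and below 0 on every one were 4, 1 and 5, against 16.4%. The median of the probes tested was 0.03 at 3 h when read as Cy5 over Cy3, with a proteasome median of -0.03.

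**Figure D1:**
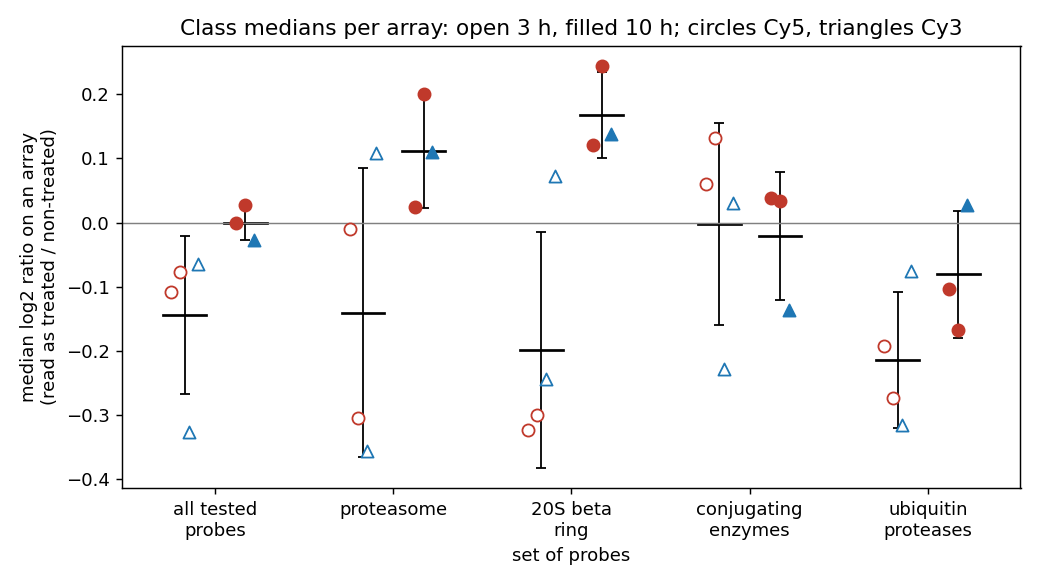
Median log2 ratio (y axis, read as treated over non-treated) of each set of probes on each array, with open symbols for 3 h, filled symbols for 10 h, circles for arrays with the treated sample in Cy5 and triangles for Cy3, and bars for the mean and SD over arrays. The proteasome medians lie between -0.36 and 0.11 at 3 h and between 0.02 and 0.20 at 10 h, and those of all tested probes lie between -0.33 and -0.07 and between -0.03 and 0.03.

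Between arrays, the medians of the 2 times overlapped for each of the 3 classes. The proteasome median was -0.01, -0.30, -0.36 and 0.11 on replicates 1 to 4 at 3 h and 0.02, 0.20 and 0.11 on replicates 1 to 3 at 10 h. That is -0.14 ± 0.23 (SD, n = 4) and 0.11 ± 0.09 (n = 3), and the highest array at 3 h lay above the lowest at 10 h. The conjugating enzymes had 0.06, 0.13, -0.23 and 0.03 at 3 h, and 0.04, 0.03 and -0.14 at 10 h. Both times were lowest on an array with the treated sample in Cy3. The ubiquitin proteases had -0.19, -0.27, -0.32 and -0.08 at 3 h, and -0.10, -0.17 and 0.03 at 10 h. The protease median was below 0 on 4 of 4 arrays at 3 h, as was the median of all probes tested. The difference of the times had a median of 0.13 for the proteasome, -0.17 for the conjugating enzymes and 0.16 for the proteases, against 0.14 over all probes. The proteasome difference was -0.005 without 3 h replicate 3, 0.34 without 3 h replicate 4 and -0.07 when read as Cy5 over Cy3. Without 3 h replicate 1 the conjugating enzyme difference was 0.13, and read as Cy5 over Cy3 the protease difference was -0.16. Without 10 h replicate 3 the fitted proteasome median at 10 h was -0.06 and the protease median -0.27.

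Precision differed more between the times than between the classes. Once a constant of each array was subtracted, many values matched the log2 of 1 small whole number over another (each at most 8, tolerance 0.0016); these are called whole-number ratios here. On the 3 h arrays this held for 31.2% to 34.4% of the proteasome values, 29.4% to 50% of the conjugating enzyme values and 39.1% to 60% of the protease values, against 45.4% to 55.7% over all probes tested. At 10 h it held for 0% to 15.6%, 0% to 5.88%, 4.17% to 9.52% and 8.05% to 9.52%. The SD of a proteasome probe over arrays had a median of 0.63 at 3 h and 0.205 at 10 h, against 0.77 and 0.36 over all probes tested. For the conjugating enzymes it was 0.58 and 0.27, and for the proteases 0.64 and 0.30. Intensities are not among the values, so the part of low signal in these spreads was not tested.

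The beta ring of the proteasome core lay just above 0 at 10 h. Psmb genes encode its subunits, and 7 of 8 tested probes were above 0 at 10 h, with a median of 0.17. At 3 h 1 of 8 was above 0, with a median of -0.24. Of all probes tested 46.5% were above 0 at 10 h and 38.6% at 3 h, with medians of -0.02 and -0.15. The difference of the times had a median of 0.40 for the beta ring and 0.14 over all probes. Of the 34 proteasome probes 11 were above 0 on every 10 h array with a value, against 16.4% of all probes (2 were below 0 on every one, against 16.3%), and 5 of those 11 were beta ring probes. Without Psmc3ip and Psme3ip1, 9 of 30 probes were above 0 on every one. The beta ring median per array was -0.32, -0.30, -0.24 and 0.07 at 3 h and 0.12, 0.24 and 0.14 at 10 h, so that the times did not overlap. Nor did they for all probes tested, with array medians of -0.33 to -0.07 at 3 h and -0.03 to 0.03 at 10 h. Read as Cy5 over Cy3 the beta ring times overlapped, with medians of -0.32, -0.30, 0.24 and -0.07 at 3 h and 0.12, 0.24 and -0.14 at 10 h. No beta ring probe passed at 10 h (adjusted p = 0.9996 for each in limma). With the ratios read as Cy5 over Cy3 the beta ring median at 10 h was 0.05, and 4 proteasome probes were above 0 on every 10 h array, against 16.2% of all probes.

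Psmb5 carries the chymotrypsin-like site, the main target of proteasome inhibitor drugs. Its probe (15424) had log2 ratios of -0.30, -0.34, -0.04 and 0.12 on replicates 1 to 4 at 3 h, and 0.11, 0.26 and 0.15 on replicates 1 to 3 at 10 h. All 3 values at 10 h were above 0 within a narrow range, and the lowest of them lay just under the highest at 3 h. Its mean was -0.14 ± 0.22 (SD, n = 4) and 0.17 ± 0.07 (n = 3), with a fitted difference of 0.34 ± 0.35 (SE, adjusted p = 0.81 in limma).

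Psmb6 carries the caspase-like site and had 2 tested probes. Probe 8920 had -0.35, -0.26, -0.04 and -0.32 at 3 h, and 0.15, 0.19 and 0.37 at 10 h. Every 10 h value was above 0 and every 3 h value below it. Of all probes, 4.61% had opposite signs at the 2 times on every array with a value, counting both directions. The fitted difference was 0.51 ± 0.35 (SE, adjusted p = 0.712 in limma). Probe 15970 had 0.69, 0.53, -1.44 and 0.32 at 3 h, and 0.13, 0.31 and 0.26 at 10 h. The probes thus gave nearly the same mean at 10 h, 0.24 ± 0.12 and 0.23 ± 0.09 (SD, n = 3 each), and different signs on 3 of the 4 arrays at 3 h. With the ratios turned to Cy5 over Cy3, their fitted values at 10 h were near 0, at 0.003 and 0.02.

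Psmb7 carries the trypsin-like site. Its probe (7106) had 0.31, 0.33, -1.33 and 0.60 at 3 h, and 0.37, 0.04 and 0.06 at 10 h. It was above 0 on 6 of 7 arrays and far below on 3 h replicate 3. Psmb10 replaces the trypsin-like subunit in the immunoproteasome, the form that interferon induces. Its probe (15323) had -1.66, -1.03, 0.63 and -0.13 at 3 h, and -0.22, 0.24 and 0.41 at 10 h, a fitted difference of 0.88 ± 0.46 (SE, adjusted p = 0.646 in limma), and the times overlapped.

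Psmb1 and Psmb4 are structural subunits. Psmb1 had -0.68, -0.15, -0.45 and -0.09 at 3 h, and 0.00, 0.23 and 0.13 at 10 h, so that its times did not overlap, and read as Cy5 over Cy3 its fitted difference was 0.16. Psmb4 had 2 probes that disagreed in sign at 10 h, with fitted values of 0.21 (probe 15548) and -0.73 (probe 7032), and the second of them rested on 2 arrays at 10 h. Psmb8 and Psmb9, the other immunoproteasome subunits, and the thymic subunit Psmb11 had too few values to be tested. Psmb8 was measured on 1 array at 3 h, at -0.90, and at 0.08, -0.40 and 0.23 at 10 h. Its 10 h values lay on both sides of 0. Psmb9 had -0.04 and 2.33 on replicates 2 and 4 at 3 h and -2.68 and 2.11 on replicates 1 and 3 at 10 h. Psmb11 had -2.69 on replicate 3 at 3 h and -0.05 and -2.72 on replicates 1 and 2 at 10 h.

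The promoters of Psmb5 and Psmb6 are shown because these are catalytic subunits with a tested probe whose promoters hold the core of the antioxidant response element. Promoters from 250 bases before to 50 after the gene start (RefSeq, build GRCm38.p6) were searched on both strands for TGACNNNGC, where N is any base. The 100 bases before the start of each gene are printed 5′ to 3′ on the gene's strand, with the match in capitals.
Psmb5, chr14:54617996-54618095, minus strand: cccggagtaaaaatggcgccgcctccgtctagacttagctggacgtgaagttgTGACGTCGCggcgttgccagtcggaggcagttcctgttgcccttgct
Psmb6, chr11:70525257-70525356, plus strand: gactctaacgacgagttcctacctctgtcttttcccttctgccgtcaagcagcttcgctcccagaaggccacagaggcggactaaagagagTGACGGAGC
In Psmb5 the match began 47 bases before the start, and in Psmb6 it began 9 bases before it.

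These letters were not more frequent in the proteasome class than elsewhere. They occurred in the promoters of 5 of 35 proteasome genes that the table held (14.3%), namely Psmb5, Psmb6, Psmc6, Psmd9 and Psme4, against 14.0% of all 27025 genes in the table. At 10 h the fitted values of these genes were 0.21 for Psmb5, 0.26 and 0.12 for Psmb6, 0.155 for Psmc6, -0.185 for Psmd9 and -0.115 for Psme4. The letters occurred in 3 of 17 conjugating enzyme genes and 6 of 24 protease genes. A match is a stretch of letters and was not tested as a binding site.

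The alpha ring, which gates the core, had a higher median SD than the beta ring at 10 h (1.08 against 0.13). The SD was 2.56 for Psma4 and 1.95 for Psma7, but 0.22 for Psma1 and 0.09 for Psma6. The 4 tested probes of the ring had a median fitted value of 0.11 at 3 h, with 2 above 0. At 10 h the median was -0.37, with 0 above 0, against 46.5% of all probes. Of these, Psma1 (-0.05 ± 0.30, SE) and Psma4 (-0.03 ± 0.73) were close to 0, and Psma7 (-0.68) and Psma6 (-1.27) further below. The difference of the times had a median of -0.22, also with 0 above 0, against 58.3% of all probes, and was -0.02 for Psma1. Psma6 had the smallest unadjusted p of the class at both times. Its probe (19271) had -0.87, -1.40 and -1.10 on replicates 1 to 3 at 3 h, and -1.33 and -1.20 on replicates 2 and 3 at 10 h. It was below 0 on 5 of 5 arrays with a value, in both dye orientations. Its mean was -1.13 ± 0.26 (SD, n = 3) and -1.27 ± 0.09 (n = 2), with adjusted p-values of 0.278 and 0.9996 in limma, and 2 of its 3 h values lay at whole-number ratios. In the other reading, its fitted values were 0.004 and -0.07.

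Psma4 and Psma7 had signs at 10 h that went with the dye orientation. Psma4 (probe 13111) had 1.03, -0.40, 0.22 and 0.16 at 3 h, and -2.06, -1.49 and 2.63 at 10 h. Psma7 (probe 3764) had -0.13, -0.27 and 1.26 on replicates 1, 2 and 4 at 3 h, and -2.78, -1.48 and 1.05 at 10 h. On both Cy5 arrays they were far below 0, and on the Cy3 array far above. Read as Cy5 over Cy3, their fitted values at 10 h were -2.17 and -1.77, with values below 0 on 3 of 3 arrays. Psma1 stayed between -0.58 and 0.50 on all 7 arrays. Over the class, 8 of 29 proteasome probes with 3 values at 10 h had the opposite sign on the Cy3 array to both Cy5 arrays (all probes 27.3%). The same held for 8 of 17 conjugating enzyme probes and 9 of 20 protease probes.

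**Figure D2:**
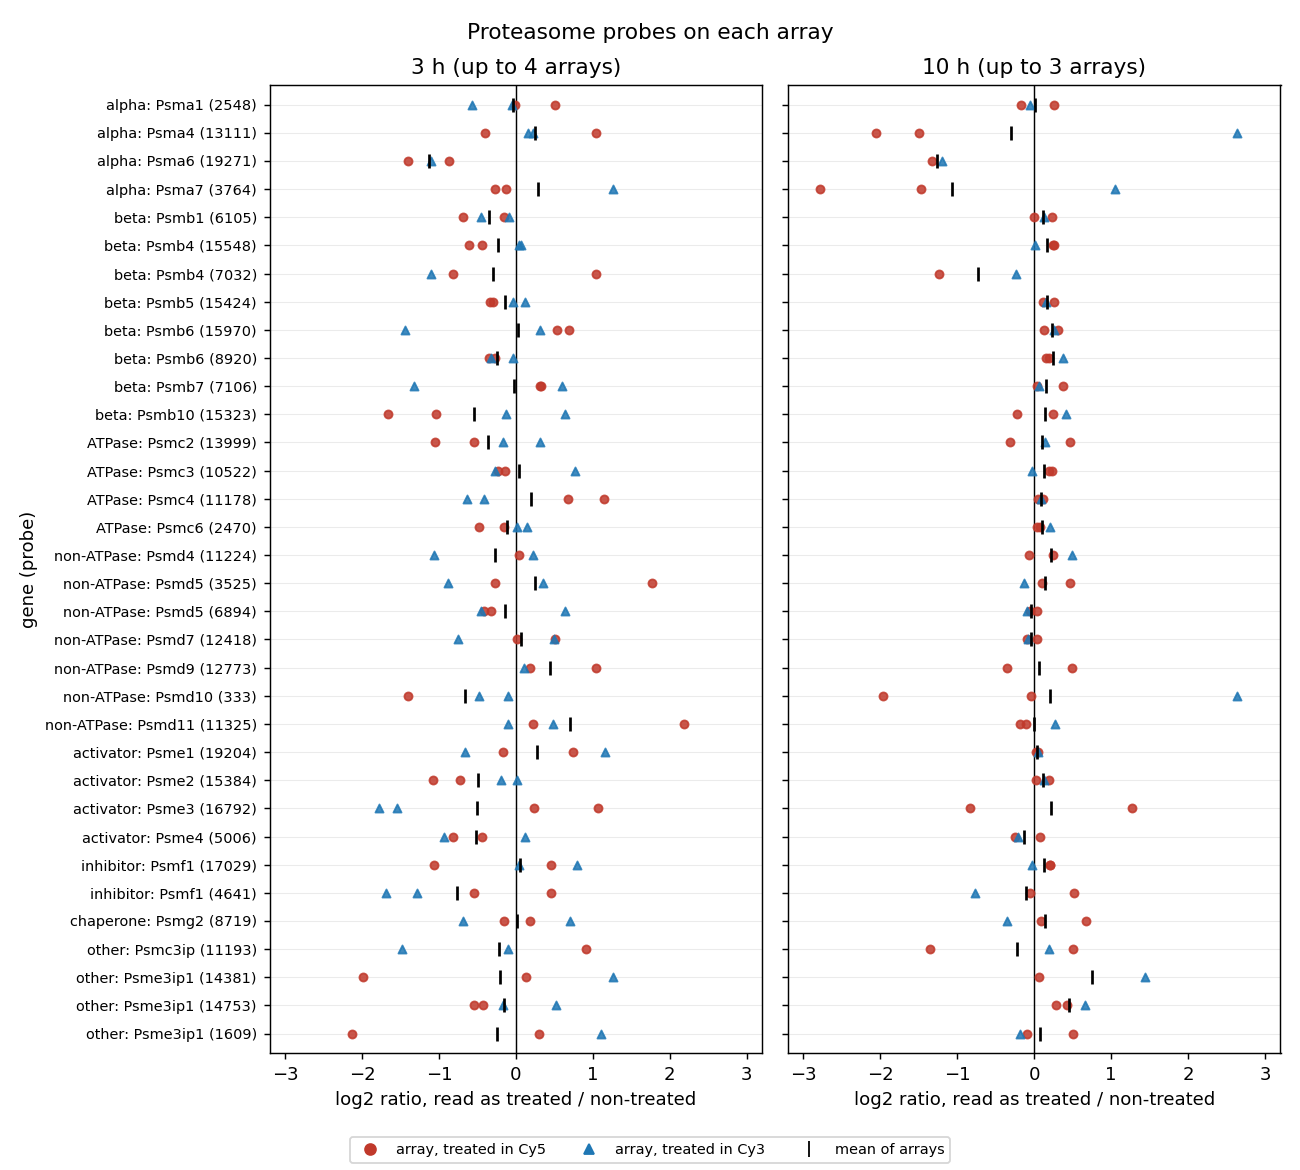
Log2 ratio (x axis, read as treated over non-treated) of each tested proteasome probe (y axis, by subgroup) on each array, with circles for the treated sample in Cy5, triangles for Cy3 and a bar for the mean of the arrays, at 3 h on the left and 10 h on the right. At 10 h most beta and ATPase means lie just above 0, with single arrays below 0 for Psmb10 (-0.22), Psmc2 (-0.32) and Psmc3 (-0.03) and a mean of -0.73 for Psmb4 probe 7032, while Psma4, Psma7 and Psmd10 lie on opposite sides of 0 in the 2 dye orientations.

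In the regulatory particle the ATPases lay just above 0 at 10 h, much as the beta ring did, and the Psmd genes near 0. Its ATPases, which unfold substrates, had 4 tested genes, 3 of them above 0 at 10 h, with a median of 0.16 (-0.04 at 3 h). The beta ring had a median of 0.17 at 10 h. The ATPase median per array was -0.35, -0.145, -0.21 and 0.17 at 3 h, and 0.04, 0.17 and 0.12 at 10 h. Psmc6 had 0.03, 0.07 and 0.21 at 10 h and Psmc4 0.06, 0.12 and 0.09, both above 0 on 3 of 3 arrays, and the fit with its dye term gave 0.15 and -0.06. At 3 h Psmc4 had 1.14, 0.67, -0.63 and -0.42, so its sign there went with the dye orientation. The Psmd genes, which encode non-ATPase subunits and assembly chaperones, had 7 probes of 6 genes, with medians of 0.07 at 3 h and 0.003 at 10 h. Among them Psmd10, an assembly chaperone of the particle, had -1.40, -0.10 and -0.48 on replicates 2 to 4 at 3 h, and -1.97, -0.04 and 2.63 at 10 h, so that its fitted difference of 1.66 ± 0.82 (SE, adjusted p = 0.639 in limma) rested on 10 h values whose sign went with the dye orientation, and it was -1.26 when read as Cy5 over Cy3. Psmd14, the deubiquitinase of the lid, was measured on 1 array at each time, at 0.45 and -2.14, and was not tested.

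Regulators of the core gave mixed values. Psme2, a subunit of the interferon-inducible activator, had -1.07, -0.72, -0.20 and 0.015 at 3 h, and 0.023, 0.19 and 0.13 at 10 h. Every 10 h value was above every 3 h value, by a small margin for the nearest pair, with a fitted difference of 0.69 ± 0.38 (SE, adjusted p = 0.649 in limma). Its partner subunit Psme1 had -0.16, 0.75, -0.66 and 1.16 at 3 h, and 0.02, 0.04 and 0.05 at 10 h, which is close to 0 at 10 h. Psmf1, an inhibitor of the core, had 2 probes that disagreed. Probe 4641 had 0.45, -0.55, -1.69 and -1.29 at 3 h, all of them at whole-number ratios (fitted -0.77 ± 0.28, SE, adjusted p = 0.308 in limma). In the other reading, it was above 0, at 0.72 at 3 h and 0.60 at 10 h. Probe 17029 had 0.45, -1.06, 0.79 and 0.03, with a fitted value of 0.05.

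In all, 3 of 34 proteasome probes (Psmb1, Psmb6 probe 8920 and Psme2) had every 10 h value above every 3 h value, against 9.87% of all probes, and 0 had every value below, against 4.72%. Under the Cy5 over Cy3 reading, the times overlapped for all 3 of these probes. Psme3ip1, which is no subunit, had the second smallest p of the class at 10 h. Its probe 14753 had -0.55, -0.42, -0.16 and 0.52 at 3 h and 0.43, 0.29 and 0.66 at 10 h (adjusted p = 0.9996 in limma), and its other 2 probes were also above 0 in the fit at 10 h, at 0.21 and 0.75. Read as Cy5 over Cy3, the fitted value of probe 14753 at 10 h was -0.02, against 0.54. Without Psmc3ip and Psme3ip1 the class had 30 probes, with medians of -0.13 and 0.06.

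Among the conjugating enzymes, Ube2q1 stood lowest at 3 h. It encodes an E2 with a long N-terminal extension. Its probe (5655) had -1.55, -1.81 and -1.06 on replicates 1, 2 and 4 at 3 h, and -0.30, 0.16 and -0.30 at 10 h. Every 10 h value lay above every 3 h value, and all 3 values at 3 h lay at whole-number ratios. The mean was -1.48 ± 0.38 (SD, n = 3) at 3 h and -0.15 ± 0.27 (n = 3) at 10 h. The fitted difference was 1.33 ± 0.44 (SE, unadjusted p = 0.0225, adjusted p = 0.577 in limma), the smallest p of any member for the difference. It was 1.12 to 1.61 with each array left out in turn and 0.82 when read as Cy5 over Cy3, where the times overlapped.

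Ube2w, which attaches ubiquitin to protein N termini, had -0.04, 0.77 and 2.11 on replicates 1, 2 and 4 at 3 h, and 0.41, 0.44 and -0.01 at 10 h. Its 3 h values lay on both sides of 0, all at whole-number ratios (adjusted p = 0.367 in limma), and its fitted 1.06 was -0.70 when read as Cy5 over Cy3. Ube2d3, a general E2 that works with many ligases, had 1.45, 0.19, -1.10 and -0.80 at 3 h, and 0.41 and -2.69 on replicates 2 and 3 at 10 h. Its sign went with the dye orientation at both times, and its fitted -1.14 at 10 h was 1.55 when read as Cy5 over Cy3. Ube2h, an E2 known from red cell maturation, had 0.45, 0.19, -0.91 and -2.06 at 3 h and -0.75, -1.74 and 0.19 at 10 h, with signs that also went with the dye orientation, in opposite ways at the 2 times. Its fitted values were -0.58 and -0.85, and 0.90 and -0.71 when read as Cy5 over Cy3.

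The E2 of the NEDD8 pathway, Ube2f, had 0.19, -0.10 and -1.60 on replicates 2 to 4 at 3 h, and 1.37 and 0.08 on replicates 2 and 3 at 10 h, a fitted difference of 1.04 ± 0.65 (SE, adjusted p = 0.69 in limma) that was -0.03 when read as Cy5 over Cy3. Ube2n, which builds lysine-63 chains with its Ube2v partners, had 0.29, 0.76, -0.59 and -0.09 at 3 h and 0.14, 0.03 and -0.16 at 10 h. Ube2j1, an E2 of endoplasmic reticulum degradation, had -0.55, 0.02, 0.31 and 0.39, and then -0.17, -0.09 and 0.54. Neither lay on 1 side of 0 at either time. Ube2o, a combined E2 and ligase, was below 0 on 3 of 3 arrays at 10 h, at -0.27, -0.22 and -0.31, and on both sides of 0 at 3 h.

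Several conjugating enzymes had more than 1 probe. Ube2l3, an E2 for HECT and RBR ligases, had 3 tested probes. Probe 18861 had -0.64, 0.04, -1.26 and 0.19 at 3 h and 0.04, 0.04 and -0.14 at 10 h. Probe 18390 had 0.13, 0.44, -0.66 and 0.00 at 3 h and -1.16, -0.12 and -0.36 at 10 h. The second was below 0 on all 3 arrays at 10 h, which the first was not, and the remaining probe had fitted values of -0.28 and 0.16. Ube2b, the E2 of the Rad6 pathway of DNA damage tolerance, had 3 probes. Their fitted values were between -0.17 and 0.02 at 3 h and between -0.06 and 0.42 at 10 h. Ube2z, an E2 that takes ubiquitin from the E1 Uba6, had 3 probes, with fitted values between -0.29 and 0.13 and between -0.55 and -0.07. Its probe 10788 had 2.04, -0.23 and -3.87 on replicates 1, 3 and 4 at 3 h, with signs that went with the dye orientation. The fitted -0.29 of that probe at 3 h was 2.00 when read as Cy5 over Cy3. Of the 14 member genes with 2 or 3 tested probes, the probes had the same sign for 5 at 3 h and for 5 at 10 h.

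**Figure D3:**
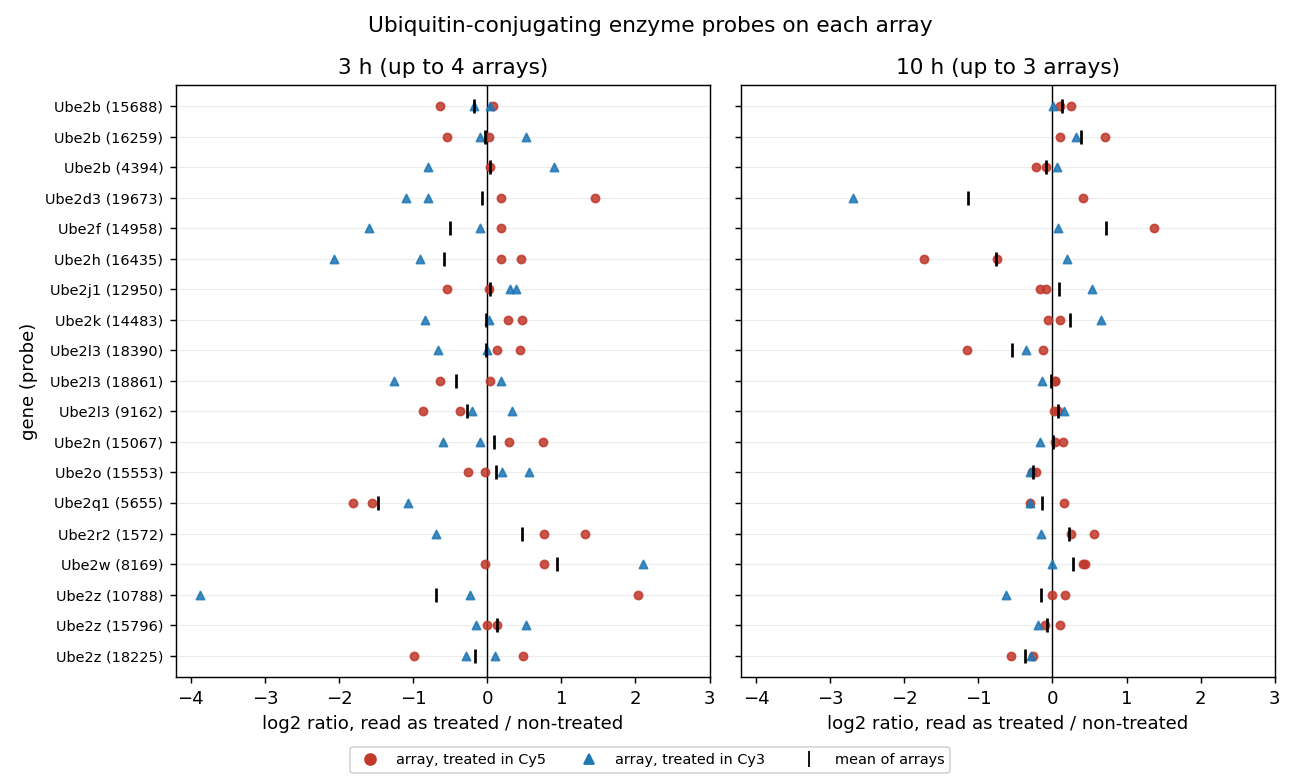
Log2 ratio (x axis, read as treated over non-treated) of each tested conjugating enzyme probe (y axis) on each array, with circles for the treated sample in Cy5, triangles for Cy3 and a bar for the mean of the arrays, at 3 h on the left and 10 h on the right. Ube2q1 lies between -1.81 and -1.06 at 3 h, while most other probes lie on both sides of 0.

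Of the ubiquitin proteases, 5 of 24 probes had an unadjusted p under 0.05 at 3 h, 4 of them below 0 and 1 above, against 10.5% and 3.13% of all probes. Usp39, a splicing factor that belongs to the family by sequence and lacks protease activity, was the member above 0. Its probe (19075) had 1.19, 1.56 and 2.13 on replicates 1 to 3 at 3 h, and 0.98 and 0.47 on replicates 1 and 3 at 10 h. It was above 0 on 5 of 5 arrays with a value, and every 10 h value lay below every 3 h value. Its mean was 1.63 ± 0.47 (SD, n = 3) and 0.73 ± 0.37 (n = 2), with adjusted p-values of 0.25 and 0.9996 in limma and a fitted difference of -0.94 ± 0.57 (SE, adjusted p = 0.683). Under the Cy5 over Cy3 reading, its fitted values were -0.23 and 0.26.

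Usp26, a protease known for its expression in the testis, had -1.36, -0.23, -1.52 and -1.36 at 3 h, and -0.58, -0.33 and -0.14 at 10 h. It was below 0 on 7 of 7 arrays, with a fitted -1.11 ± 0.29 at 3 h (SE, adjusted p = 0.253 in limma), and 3 of its 3 h values lay at whole-number ratios. With the ratios turned to Cy5 over Cy3, it was 0.32 at 3 h. Usp16, which removes ubiquitin from histone H2A, had 2 probes. Probe 12450 had -2.25, -0.47 and -1.58 on replicates 1, 2 and 4 at 3 h, and 0.02, 0.07 and 0.03 at 10 h, none of them at whole-number ratios. Its times did not overlap, and the fitted difference was 1.47 ± 0.57 (SE, unadjusted p = 0.0416, adjusted p = 0.596 in limma). Read as Cy5 over Cy3, the times overlapped, with a fitted -0.14 at 3 h and a difference of 0.40. Probe 12852 of the same gene had -0.63, 0.68, -0.51 and -0.35, and then -0.16, -0.11 and -0.12, with a fitted difference of 0.02.

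Usp30, a mitochondrial deubiquitinase, and Usp37, which acts in the cell cycle, were the remaining 2 members below 0 at that level. Usp30 probe 16888 had -1.36, -0.49 and -1.36 on replicates 1, 2 and 4 at 3 h and -0.88, -0.64 and 0.04 at 10 h, and its fitted -1.04 at 3 h was 0.09 when read as Cy5 over Cy3. Its second probe (17526) had 0.21, -3.10 and 0.41 on replicates 1, 3 and 4 at 3 h, so that its fitted -0.74 ± 0.72 (SE) there came with 2 of 3 arrays above 0. Usp37 had -1.55, -0.72, -0.10 and -0.77 at 3 h and -0.06, 0.32 and -0.24 at 10 h. Usp37 and Usp30 probe 16888 were below 0 on every 3 h array with a value (adjusted p = 0.317 and 0.311 in limma).

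Usp8, which sorts receptors at endosomes, had 2 probes that disagreed. Probe 12334 had -0.84, -0.65, -1.10 and 0.39 at 3 h and 0.55, 0.55 and 0.15 at 10 h (fitted difference 0.98 ± 0.48, SE, adjusted p = 0.637 in limma). Probe 19949 had a fitted difference of -0.52. Usp7, the protease of Mdm2 and p53, had 3 probes. Probe 14427 had 0.45, 1.19, 0.48 and 1.84 at 3 h, all at whole-number ratios, and -0.10, -1.59 and 4.04 at 10 h, and its fitted 1.14 at 10 h was -0.67 without replicate 3 and -2.32 when read as Cy5 over Cy3. The other probes of Usp7 (6483 and 18534) had fitted values of -0.08 and 0.09 at 3 h. Probe 18534 had -0.80, 0.92, -1.27 and 1.52 on the arrays there. Probe 6483 had -0.85, -0.21 and 2.05 at 10 h, and its fitted 0.50 was -1.19 when read as Cy5 over Cy3. Usp46 probe 14538 had -5.35, -0.15 and 0.08 at 10 h, and its fitted -1.69 was -0.04 without replicate 1. Its fitted value at 3 h was -0.42. The second tested probe of Usp46 (17804) had the opposite sign at both times, with fitted values of 0.27 and 0.51. A further probe (10639), with too few values to be tested, had -4.46 and -3.99 on replicates 1 and 2 at 10 h. The proteasome-bound Usp14 was not analysed here.

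**Figure D4:**
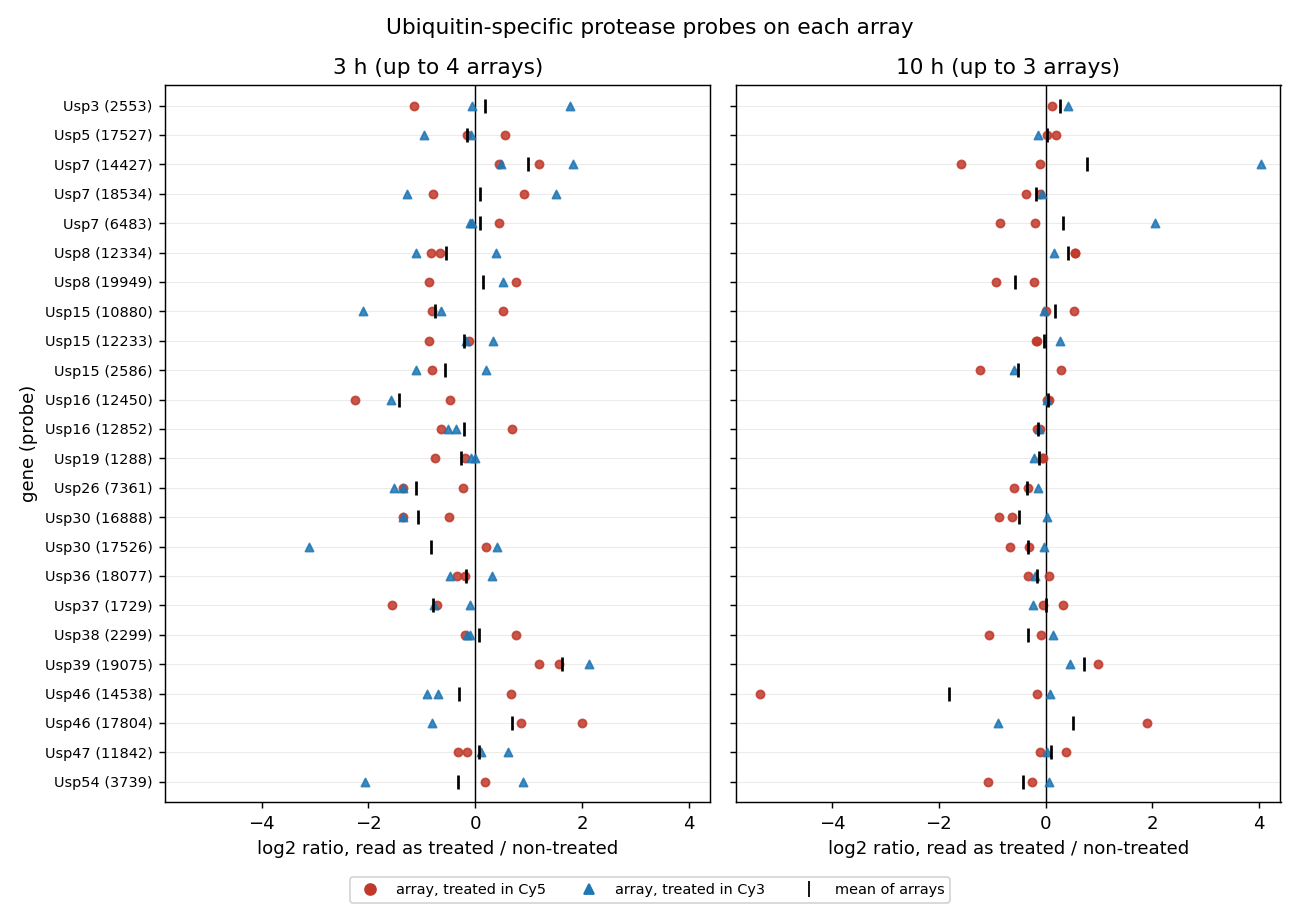
Log2 ratio (x axis, read as treated over non-treated) of each tested ubiquitin protease probe (y axis) on each array, with circles for the treated sample in Cy5, triangles for Cy3 and a bar for the mean of the arrays, at 3 h on the left and 10 h on the right. Usp39 is above 0 and Usp26 below 0 on every array with a value. The median SD is 0.64 at 3 h and 0.30 at 10 h, against 0.77 and 0.36 over all probes tested. Some probes spread out instead, such as Usp7 probe 14427 (SD 0.66 and 2.92) and Usp46 probe 14538 (0.85 and 3.07).

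The other 58 member probes had too few values to be tested, among them all probes of 36 genes. They were 17 proteasome, 14 conjugating enzyme and 27 protease probes, and their values ran from -4.46 to 3.69. On 24 of them a 3 h array held a repeated extreme value that was treated as missing. Genes without a tested probe included Psma2, Psma5, Psmb2, Psmb3, Psmc5, Psmd2 and Psmg1 of the proteasome, the mitotic E2 Ube2c, Ube2a and Ube2g2, and the proteases Usp1, Usp4, Usp10 and Usp9x.

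The rest of the pathway was described from a list of ubiquitin genes, activating enzymes, ligases, other deubiquitinases and shuttling factors, of which 77 probes of 56 genes were tested. None passed. At an unadjusted p under 0.05 in limma there were 7 of the 77 at 3 h (2 above 0 and 5 below), against 13.6% of all probes (3.13% above and 10.5% below). There was 1 at 10 h (above 0), against 3.88% (1.56% above 0). For the difference there were 6 (5 higher at 10 h and 1 lower), against 8.11% (5.37% higher and 2.74% lower). Its median was -0.07 at 3 h and -0.05 at 10 h. Herc2, a giant HECT ligase, had -2.72, -2.23, -1.56 and -1.62 at 3 h, and 0.32, -0.03 and -0.72 at 10 h. All 4 values at 3 h lay below all 3 at 10 h, with adjusted p-values of 0.201 at 3 h and 0.569 for the difference in limma, while its second probe had fitted values of -0.52 and 0.09. With the ratios turned to Cy5 over Cy3, the first probe had a fitted -0.44 at 3 h and its times overlapped. Skp1, the adaptor of SCF ligases, had -1.14, -2.10 and -0.48 on replicates 1, 3 and 4 at 3 h and 1.65, 0.14 and 1.56 at 10 h, and its fitted difference of 2.44 was -0.41 when read as Cy5 over Cy3. Smurf2, a ligase of TGF-beta signalling, was above 0 at 3 h, at 2.04, 1.77, 0.31 and 0.52.

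Other genes of the list were close to the proteasome itself. Sem1, a small subunit of the lid that the symbol pattern does not reach, had -1.31, -0.92, -0.70 and 0.13 at 3 h, and 0.37, 0.42 and 0.54 at 10 h, with a fitted difference of 1.24 (unadjusted p = 0.0192, adjusted p = 0.569 in limma) that was 0.58 when read as Cy5 over Cy3. The maturation factor Pomp had -0.31, -0.61, 0.08 and 0.39, and then 0.24, 0.32 and 0.16. For both, all 3 values at 10 h were above 0. The transcription factor Nfe2l2 had -0.24, -1.62 and -2.34 on replicates 1, 2 and 4 at 3 h and 0.13, 0.28 and -0.14 at 10 h (adjusted p = 0.254 at 3 h in limma), and Nfe2l1 had -0.24, -0.23, -1.10 and -0.43 and then 0.21, -0.07 and -0.10. Both were below 0 on every 3 h array with a value, as 16.4% of all probes were, and read as Cy5 over Cy3 their fitted values there were 0.43 and 0.27. Uba6, an E1 enzyme, had 1.60 and 3.21 on replicates 2 and 3 at 10 h, and Stambp, an endosomal deubiquitinase, had 0.90, 0.04 and 5.39. Their fitted values at 10 h were 2.41 and 2.38, and -0.81 and -2.10 when read as Cy5 over Cy3.

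A log ratio carries no level, so the fibroblast identity of the cells was not tested. Of the fibroblast markers 26 probes of 14 genes were tested, with medians of 0.12 at 3 h and -0.13 at 10 h. Markers of macrophages and lymphocytes had 2 tested probes of 1 gene (medians -0.50 and -0.04), those of epithelium 3 probes of 3 genes (-0.56 and -0.09), and the erythroid list 4 probes of 1 gene (-0.42 and -0.14). Their part in the member values was not tested.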

How the data were processed

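The authors deposited 1 table of log2 ratios for 7 two-colour arrays, and neither its direction nor any background correction or scaling is stated in the labels. The deposited log2 values, named by the platform annotation, were used without further normalization. Repeated extreme values beyond 15 were treated as missing, and probes with at least 3 values at 3 h and 2 at 10 h were kept. limma (version 3.58.1, in R 4.3.3) was fitted over 11559 probes with a mean for each time and a dye term, and p-values were adjusted by the Benjamini-Hochberg method over all of them (threshold 0.05). The fit was tested on simulated data. Between 13262 and 17766 spots were measured per array. The number of arrays limits the precision. Named probes were the 3 with the smallest unadjusted p in each class, time and difference, the catalytic proteasome subunits and genes with several probes; others illustrate subgroups. The members and lists were chosen with earlier results of these data known. Replicate numbers were checked for pairing by the correlation of deviations between times over 6369 probes. It was 0.0282, 0.0315 and 0.0913 for arrays of the same number (1, 2 and 3), and -0.071 to 0.048 for different numbers. Replicates 1 and 2 were in Cy5 and replicate 3 in Cy3 at both times, so number and dye orientation cannot be told apart. The main fit did not pair the arrays.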

Additional observations from a re-analysis of the deposited data

Results flagged for a closer look

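Of 25 named probes, 16 had the 4 values at 3 h that a check for a far sample needs, and chance marks about 1 in 20 groups. Psmb7 had 1 array far from the others at 3 h, replicate 3 at -1.328. Usp26 had replicate 2 at -0.228, far above the other 3 arrays at 3 h, and without it the fitted value was -1.43. For 2 probes every array was below 0 at 3 h and every array above 0 at 10 h. Their fitted differences were 0.507 for Psmb6 probe 8920 (adjusted p = 0.712 in limma) and 1.47 for Usp16 probe 12450 (adjusted p = 0.596 in limma), so neither difference passed the test. Read as Cy5 over Cy3 the differences were 0.07 and 0.40, and the times overlapped for both. Over all probes tested, 4.61% had opposite signs at the 2 times on every array with a value, in either direction.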

How the results depend on the processing

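No member passed the adjusted threshold under any alternative run, and 213 of 216 counts past it equalled the reported 0. The exceptions covered all probes: 6 at 3 h with values over 15 kept, and, over the 2119 probes without whole-number ratios (chosen after seeing the data), 49 at 3 h and 13 for the difference. That subset gave a conjugating enzyme difference of 0.31 over 5 probes. Of 216 class medians, 14 moved by more than 1 SD. Read as Cy5 over Cy3, the protease median was -0.0645 at 3 h and -0.16 for the difference, the conjugating enzyme median 0.0552 at 10 h, and the beta ring median 0.0506 at 10 h and 0.11 for the difference. Centring and scaling gave a beta ring median of 0.27 at 10 h. Leaving out single arrays, the protease median was -0.33 to -0.11 at 3 h, -0.27 to -0.0170 at 10 h and 0.12 to 0.31 for the difference. The conjugating enzyme difference was -0.11 to 0.13, the beta ring median at 10 h 0.13 to 0.24, the proteasome difference -0.005 to 0.34, and the proteasome median at 10 h -0.0609 to 0.16. With the replicate number as a block, without a dye term, the difference was 0.31 for the proteasome, -0.06 for the conjugating enzymes and 0.20 for the proteases, 0 probes passed the adjusted threshold, and 873 instead of 938 had an unadjusted p under 0.05. Not every array correlated best with its own number. Few arrays, ratios without intensities and an unstated direction limit these values.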
